A study of Homo sapiens with 6 samples.

Results

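The egg supplies the early embryo with proteins that it has made and stored before fertilisation, and genes needed in the mother's egg for the embryo to develop are called maternal-effect genes. Several of these proteins, among them NLRP5, OOEP, KHDC3L and TLE6, join in the subcortical maternal complex that lies beneath the egg's membrane. The NLRP genes belong to a family of proteins with a nucleotide-binding NACHT domain and leucine-rich repeats, in which one branch acts in innate immunity and another is expressed mainly in the germ line.

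DNA methylation was examined at 10 oocyte and maternal-effect genes, of 19812 protein-coding genes with a canonical start in GENCODE on GRCh37. The 10 genes were NLRP2, NLRP4, NLRP5, NLRP7, NLRP9, NLRP11, NLRP13, KHDC3L, OOEP and TLE6. They were listed by name and not by a limit on a measured value, although earlier results of these data were known when the list was made. Each gene was measured over its promoter, from 1000 bp before to 500 bp after the canonical transcription start, and over its gene body, the annotated gene without that promoter. The methylation level is the share of calls at CpG sites, within the feature and the library, that were read as methylated. A level between the extremes can come from some cells, some alleles or some sites, and these cannot be told apart in summed calls. RNA was not measured here, so a level says nothing of whether a gene was transcribed.

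The study applied whole-genome bisulfite sequencing to H9, an embryo-derived human pluripotent stem cell line, in 2 states with 3 libraries each. Conventional cells were cultured in FGF/KSR medium with 10 ng/ml bFGF and 20% KSR, a serum replacement. Reset cells carried doxycycline-inducible NANOG and KLF2 transgenes. After induction and doxycycline withdrawal they were kept in t2iL+Gö, which holds 1 µM CHIR99021, 1 µM PD0325901, LIF and 5 µM Gö6983. Both states were grown on mouse embryonic fibroblasts in 5% oxygen. All 6 libraries came from the H9 line. The study calls its bisulfite libraries biological replicates, while the labels do not say whether those of a state came from separate cultures. The p-values of single features rest on call counts and on a spread between these libraries that borrows from all features of a kind. They speak only of these libraries. Transgene history and medium differ together between the states and cannot be told apart.

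Depth was low. The libraries held 91943625 to 97920785 calls in Conventional and 70255576 to 80121558 in Reset, which is 3.28 to 3.49 and 2.51 to 2.86 calls per CpG of the reference. Over all calls, 84.3% to 84.6% were methylated in Conventional and 29.5% to 30.3% in Reset, so every comparison is read against a genome in which methylation fell broadly. Of 19293 promoters tested, 67.4% were called lower in Reset and 3.98% higher at an adjusted p under 0.05, and in 69% the highest Reset level was under the lowest Conventional one. For 19193 gene bodies, 97.9% were called lower and 1.11% higher, and the groups lay apart in the lower direction in 97.9%. For 2060730 windows of 1 kb, 98.3% were called lower and 97.9% lay apart.

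All 10 genes could be tested, since each feature held 10 or more calls per library. All 10 promoters and all 10 gene bodies were lower in Reset, with no overlap between the states, beside 69% and 97.9% of all those tested. Averaged over the 10 promoters, the level was 70.9% ± 1.42 in Conventional and 18.4% ± 2.23 in Reset (SD, n = 3 libraries). The averages over all promoters tested were 31.3% ± 0.215 and 12.02% ± 0.116. Averaged over the 10 gene bodies, the level was 80.8% ± 0.589 against 27.4% ± 1.12, close to the 81.4% ± 0.151 and 31.7% ± 0.444 of all bodies. The exact two-sided permutation test gave p = 0.1 for each of these 4 differences, the smallest value that 3 against 3 libraries allow.

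The promoters differed from the average coding promoter before resetting, since 9 of the 10 held 50% or more in Conventional, as did 5125 of all promoters tested. Their median Reset level was 27.3%, and the median share of the Conventional level they kept was 33.1%. Over all 5125 such promoters these medians were 31.5% and 37.1%. NLRP2 and NLRP7, which share CpGs, passed 50% through the third Conventional library alone, and without them, a choice made after seeing the data, the medians of the other 7 were 32.1% and 40.2%, above those of all such promoters. For gene bodies the members kept a median of 37.1% of the Conventional level, and all bodies 40.3%. The promoter medians cover a split set. The promoters of NLRP2, NLRP7, KHDC3L and OOEP kept 1.23% to 8.99%, and those of NLRP4, NLRP5, NLRP9, NLRP11 and NLRP13 kept 33.1% to 51.0%. Over all 10 promoters the median kept was 25.3%, against 37.6% over all promoters tested.

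**Figure D1:**
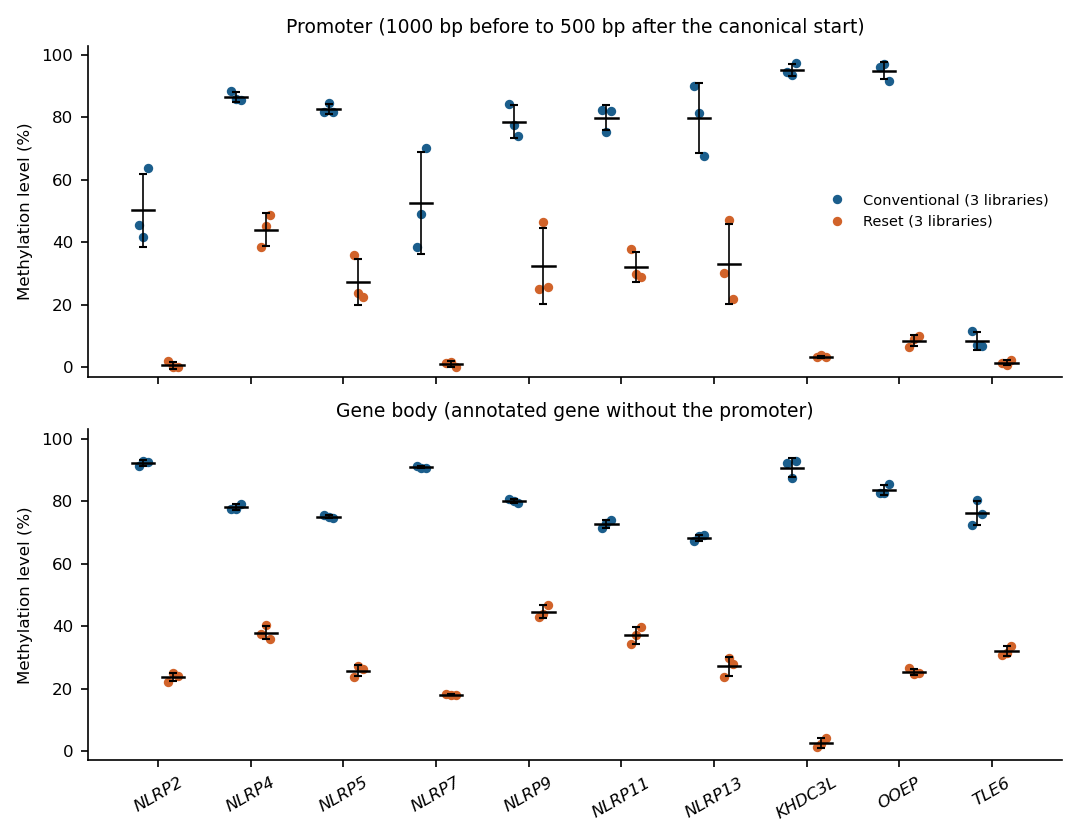
Methylation level (%) of the 10 genes at the promoter (upper) and gene body (lower) in each of 3 Conventional and 3 Reset libraries, shown as points, with the mean (horizontal bar) and SD (error bar). The states do not overlap at any of the 20 features, and Reset lies below Conventional without overlap in 69% of all promoters and 97.9% of all bodies tested. Reset promoters split into a group at 10.0% or below and a group from 21.8% to 48.7%.

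In the order of Reset promoter levels, NLRP2, NLRP7, TLE6, KHDC3L and OOEP came first, and NLRP5, NLRP11, NLRP9, NLRP13 and NLRP4 followed. The library ranges of NLRP2, NLRP7 and TLE6 overlapped from each gene to the next, those of TLE6, KHDC3L, OOEP and NLRP5 lay apart from each to the next, and those from NLRP5 to NLRP4 again overlapped between neighbours. No library of the 5 lower genes exceeded 10.0% and no library of the 5 higher ones was under 21.8%. The 5 lower genes were KHDC3L, OOEP and TLE6 together with the neighbouring pair NLRP2 and NLRP7, and the 5 higher ones all lie in one cluster further along chromosome 19.

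KHDC3L, a KH-domain protein whose loss in mothers leads to molar pregnancy, showed the largest promoter difference of the 10 genes. The gene lies at chr6:74072381-74073894 on the plus strand. Its promoter level was 94.6%, 93.7% and 97.3% in the Conventional libraries and 3.28%, 3.76% and 3.20% in the Reset libraries. The promoter therefore went from nearly complete methylation to a few methylated calls in every library, a difference of -91.8 percentage points (SE 1.10, adjusted p = 3.281e-10, quasi-binomial model). Its short gene body was at 90.8% ± 3.02 in Conventional and 2.68% ± 1.52 in Reset. Only 18 of 18147 bodies at 50% or more in Conventional (0.1%) kept as small a share, counting KHDC3L itself. This body holds only 45 CpGs, directly after the promoter, and most bodies are longer. Among its neighbours, the bodies of KHDC1L and DPPA5 kept less, 1.16% and 0.85% against 2.95%, and that of KHDC1 kept 42.3%. The low level at KHDC3L was bounded. In 250-bp bins, Reset means were at most 5.00% from 750 bp before the start to 1499 bp after it. In the bin 1000 to 751 bp before the start the mean was 28.6%, on few calls in each library. The 1-kb window at chr6:74075001-74076000, downstream of the gene, held 37.3% in Reset.

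OOEP, another KH-domain protein of the same complex, starts 7239 bp from KHDC3L and is read from the minus strand. Its promoter was at 96.0%, 97.0% and 91.8% in Conventional and at 6.51%, 9.09% and 10.0% in Reset. All Reset libraries were again far below all Conventional libraries, by -86.4 points (SE 1.91, adjusted p = 5.883e-10, quasi-binomial model). Between the promoters of KHDC3L and OOEP the methylation did not disappear to the same extent, since the window at chr6:74076001-74077000 was at 52.9% ± 7.57 in Reset. The bases before both starts are shown here because their CpGs lost nearly all methylated calls. The bases are from GRCh37, 5′ to 3′ on the gene's strand, and cover the stretch before the start that is free of annotated coding-gene exons. Capitals mark CpG sites.
KHDC3L chr6:74072081-74072380 (plus strand): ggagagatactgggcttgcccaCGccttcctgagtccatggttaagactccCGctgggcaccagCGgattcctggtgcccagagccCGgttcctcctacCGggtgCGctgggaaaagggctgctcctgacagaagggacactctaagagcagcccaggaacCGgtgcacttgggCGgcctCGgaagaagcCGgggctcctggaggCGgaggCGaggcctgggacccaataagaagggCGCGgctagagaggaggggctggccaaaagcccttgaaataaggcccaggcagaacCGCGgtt
OOEP chr6:74079621-74079920 (minus strand): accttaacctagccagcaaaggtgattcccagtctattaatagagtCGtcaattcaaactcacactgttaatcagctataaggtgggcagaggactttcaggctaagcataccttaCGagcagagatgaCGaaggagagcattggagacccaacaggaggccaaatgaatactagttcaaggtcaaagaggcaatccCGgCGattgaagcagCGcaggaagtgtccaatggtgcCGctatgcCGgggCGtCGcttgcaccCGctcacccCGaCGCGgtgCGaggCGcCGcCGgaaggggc

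Over the printed bases, 106 of 112 Conventional calls at KHDC3L were methylated and 1 of 81 Reset calls, with all 16 CpGs read in both states. At OOEP the counts were 113 of 118 in Conventional and 11 of 179 in Reset over 18 CpGs. A methylated call was seen in Reset at 1 of the 16 CpGs and at 10 of the 18.

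The annotated OOEP gene, chr6:74078278-74104856, extends well past its canonical transcript, chr6:74078278-74079620. Its body level of 83.6% ± 1.69 in Conventional and 25.4% ± 1.00 in Reset therefore mostly describes the long stretch of the longer transcripts. Within that stretch the window at chr6:74088001-74089000 was at 57.2% in Reset, one of the highest Reset levels in any member gene, with 51.2%, 62.5% and 57.9% in the 3 libraries. The most distant OOEP start, at position 74104856, lies inside DDX43, a helicase gene read from the opposite strand. The promoter window of that start, chr6:74104356-74105856, also holds the annotated start of DDX43 at position 74104551. It went from 96.8% ± 2.85 to 0.275% ± 0.477, a level that cannot be assigned to either gene alone. A window at chr6:74098001-74099000, which overlaps an annotated long noncoding RNA, was at 12.1% ± 0.437 already in Conventional and at 0.889% ± 1.54 in Reset (adjusted p = 3.173e-07, quasi-binomial model over windows).

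The neighbours in this gene cluster were described from a list of 3. DPPA5, a KH-domain protein of pluripotent cells and early embryos, had promoter levels of 97.6%, 100% and 96.8% in Conventional and 1.43%, 2.87% and 0% in Reset, the last allowing up to 1.64%. KHDC1L fell from 96.2% ± 1.02 to 13.8% ± 5.81 at its promoter and from 97.4% ± 1.57 to 1.13% ± 1.09 over its body. KHDC1, whose promoter was at 22.8% ± 5.17 in Conventional, fell to 6.30% ± 2.76, while its body was at 36.2% ± 0.248 in Reset. All 3 promoters and all 3 bodies were called lower, beside 67.4% and 97.9% over all features. From KHDC1L to OOEP, 26 of 157 windows tested (16.6%) were under 10% in Reset, and 26 were at 50% or more. Over all windows tested these shares were 10.9% and 9.76%. Of the 26 low windows, 20 were at 50% or more in Conventional, as were 188133 of 224563 low windows over the genome. Low windows at DPPA5, at KHDC3L and at the distant OOEP start, beside the DDX43 start, alternated with windows that kept much of their methylation.

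**Figure D2:**
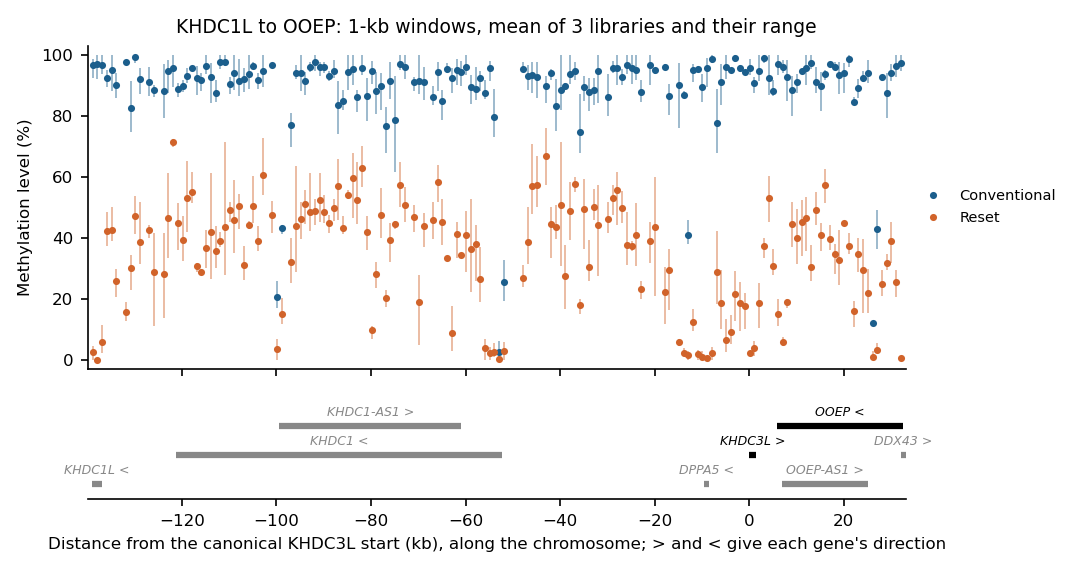
Methylation level (%) in 1-kb windows with at least 10 calls in each library from KHDC1L to OOEP, against the distance in kb from the canonical KHDC3L start, with points for the mean of 3 libraries and vertical lines for their range, and genes drawn to scale below. Reset points drop to a few percent at KHDC1L, DPPA5, KHDC3L and the right end of OOEP, where DDX43 also starts, and reach 57.2% within OOEP.

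NLRP2 and NLRP7 form a pair. NLRP2 variants in mothers have been tied to imprinting disturbances in their children, and NLRP7, like KHDC3L, is a gene of recurrent molar pregnancy. The canonical starts lie 131 bp apart and are read in opposite directions, and their promoter windows share 48 CpGs at chr19:55477111-55478242. The annotated genes also overlap over 13183 bp, because NLRP2 has a start within NLRP7. Their promoter and body values are thus not separate measurements.

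The NLRP2 promoter was at 45.5%, 41.7% and 63.6% in Conventional and at 1.85%, 0% and 0% in Reset. The NLRP7 promoter was at 38.3%, 49.0% and 70.3% in Conventional and at 1.35%, 1.59% and 0% in Reset. Both genes thus held middle levels in Conventional, unlike the other 8, and Reset libraries held almost no methylated call. The zeros allow up to 5.45% and 5.26% at NLRP2 and up to 3.16% at NLRP7, as counting error only. The differences were -49.6 points (SE 6.81) and -51.6 points (SE 9.42). The quasi-binomial model gave adjusted p = 3.09e-06 and 1.908e-06. At the most upstream NLRP2 start, inside NLRP7, the promoter was at 88.3% ± 5.21 in Conventional and 3.71% ± 1.55 in Reset, so the middle level held for the canonical start and the difference there was larger, at -84.6 points. Of 5125 promoters at 50% or more in Conventional, 16 kept as small a share as NLRP2 (0.31%) and 34 as small a share as NLRP7 (0.66%). These counts include the genes themselves, and that of NLRP7 also includes NLRP2. Both genes passed 50% only through the third Conventional library, and their Reset means rest on very few methylated calls, so these ranks are rough.

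The mean Conventional level was low beside the starts and higher on both sides of them. In the 250 bp before the NLRP2 start the mean was 7.94%, from 18 calls or fewer in each library, and it was 87.3% ± 5.06 in the bin 1000 to 1249 bp after it. On the other side, the bin 750 to 999 bp into NLRP7 was at 95.0%. The libraries disagreed at the start itself, where the bin 0 to 249 bp after the NLRP2 start was at 0%, 30.4% and 83.3% on 5, 23 and 12 calls, the first allowing up to 60.0%.

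In Reset low levels were also seen inside both genes, in separate stretches and not throughout. The gene bodies fell from 92.3% ± 0.904 to 23.7% ± 1.32 at NLRP2 and from 91.0% ± 0.364 to 18.1% ± 0.208 at NLRP7, with adjusted p = 3.882e-25 and 1.566e-26 in the quasi-binomial model. NLRP7 kept 19.9% of its Conventional level, as little as 5.75% of the 18147 bodies at 50% or more in Conventional, and NLRP2 kept 25.6%. Stretches of at least 3 consecutive windows under 10% in Reset were then looked for, a description chosen after the values were seen. The genome held 15725 of them, 2471 with 5 or more windows and 82 with 10 or more, so such stretches were not particular to these genes. The pair of genes held 3, the KHDC1L to OOEP region 4 and the distal NLRP cluster none. Those of the KHDC region, at chr6:73933001-73936000, chr6:74016001-74021000, chr6:74057001-74060000 and chr6:74061001-74065000, touched no member gene and were at 1.39% to 3.28% in Reset. In Conventional they were at 96.7%, 44.6%, 78.5% and 96.4% in that order, and the second held a window already at 2.61% there. The first of the pair, chr19:55450001-55460000 inside NLRP7, spanned 10 windows and 293 CpGs and went from 91.1% ± 1.22 to 3.998% ± 0.041. The second, chr19:55461001-55466000, reached the most upstream NLRP2 start and went from 88.8% ± 1.83 to 2.03% ± 0.504. The third, chr19:55476001-55482000, held the canonical starts and went from 80.4% ± 5.81 to 2.26% ± 0.657.

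Between the second and the third of these stretches the methylation was not lost to the same degree, and Reset windows from 55466001 to 55476000 ranged from 12.4% to 35.1%. The 3 lowest windows of all member genes lay inside the first and the third stretch. At chr19:55456001-55457000, in an intron of NLRP7 after exon 3, the level was 95.5%, 95.7% and 100% in Conventional, and none of 164 Reset calls was methylated, which allows up to 1.83%. At chr19:55476001-55477000, after the first exon of NLRP7, none of 41 Reset calls was methylated, which allows up to 7.32%, against 97.5% in Conventional. The third, chr19:55458001-55459000 over exon 3 of NLRP7, went from 92.1% to 0.358%. Over NLRP7, 17 of 43 windows were under 10% in Reset, and over NLRP2 10 of 46. The genes share windows, and with each counted once 24 of 78 (30.8%) were under 10%, beside 10.9% of all windows tested. Relative coverage, the calls per CpG divided by the library's autosomal mean, was 0.678 to 0.893 at this pair, so depth was below the mean in every library.

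**Figure D3:**
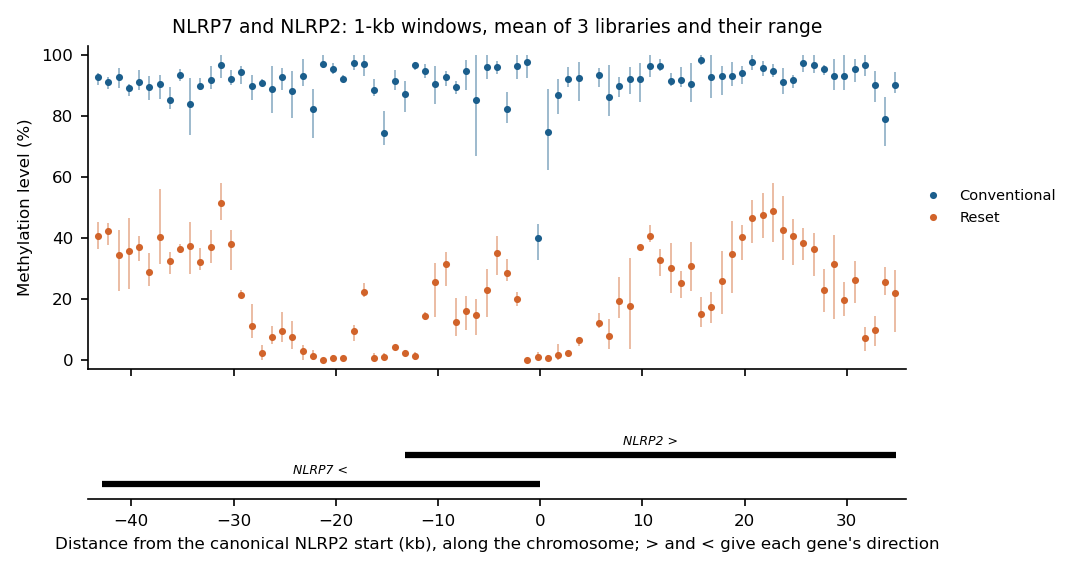
Methylation level (%) in 1-kb windows across NLRP7 and NLRP2 against the distance in kb from the canonical NLRP2 start, as the mean of 3 libraries (points) and their range (vertical lines), with both genes drawn to scale below. Conventional windows lie at 74.2% or above except for 39.98% at the start. Reset shows 3 troughs near 0%, with windows of up to 35.1% between the second and the third.

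The remaining NLRP genes lie in the distal cluster at chr19:56219804-56573176 and kept more. NLRP4, an oocyte-expressed family member, had promoter levels of 88.3%, 85.7% and 85.5% in Conventional and 38.5%, 45.1% and 48.7% in Reset. It kept 51.0% of the Conventional level, and 80.7% of promoters at 50% or more in Conventional kept as little or less. The difference of -42.4 points (SE 3.13) had an adjusted p of 4.688e-07 in the quasi-binomial model. NLRP5, the MATER protein of the subcortical maternal complex, was at 82.7% ± 1.68 and 27.3% ± 7.39 (adjusted p = 1.132e-06). NLRP11 was at 79.9% ± 4.0 and 32.1% ± 4.91, with ranges that overlapped those of its neighbours in the order.

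NLRP9 and NLRP13 varied more between libraries. The NLRP9 promoter was at 84.2%, 77.6% and 73.9% in Conventional and at 25.0%, 46.6% and 25.7% in Reset. The NLRP13 promoter was at 90.1%, 81.5% and 67.8% against 30.3%, 47.1% and 21.8%. Over the whole promoter, Reset replicate 2 was the highest of the 3 at both genes, and it remained below every Conventional library. In the 300 bases before the NLRP13 start, Reset was not lower. There 16 of 27 Conventional calls and 17 of 27 Reset calls were methylated over 7 CpGs. The libraries overlapped, on 1 to 14 calls each, and this stretch was not tested on its own. NLRP9 has few CpGs near its start, in contrast with KHDC3L and OOEP, as its exon-free bases before the start show.
NLRP9 chr19:56249769-56250068 (minus strand): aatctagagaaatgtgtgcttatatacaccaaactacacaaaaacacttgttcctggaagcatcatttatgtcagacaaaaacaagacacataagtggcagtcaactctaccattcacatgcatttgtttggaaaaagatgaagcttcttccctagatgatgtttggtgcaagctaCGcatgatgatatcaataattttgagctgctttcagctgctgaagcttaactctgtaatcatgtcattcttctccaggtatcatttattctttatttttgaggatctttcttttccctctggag

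Its single CpG in these bases was methylated in 15 of 16 Conventional calls and in 7 of 11 Reset calls. The levels were 87.5%, 100% and 100% in the Conventional libraries and 50%, 66.7% and 66.7% in the Reset libraries, each from 8 calls or fewer, and the site was not tested on its own.

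The bodies of this cluster were less methylated than most before resetting and differed among themselves in the share kept after it. In Conventional they ran from 68.4% ± 0.971 at NLRP13 to 80.1% ± 0.585 at NLRP9, all below the median of 87.1% over all bodies tested. In Reset NLRP9 held 44.6% ± 2.03, NLRP4 38.0% ± 2.18, NLRP11 37.1% ± 2.73, NLRP13 27.2% ± 3.05 and NLRP5 25.8% ± 1.82. NLRP9 kept 55.7% of its Conventional level, and 97.9% of bodies at 50% or more in Conventional kept as little or less. In NLRP5 the share kept was 34.3% and only 25.5% of bodies kept as little, so genes of one cluster stood on both sides of the genome's median. Over the whole cluster, the median of 330 windows was 73.9% in Conventional and 32.7% in Reset, against 91.7% and 30.6% over all windows. The 117 windows outside the member genes had medians of 73.7% and 33.3%, so the lower Conventional level was also seen between the members.

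**Figure D4:**
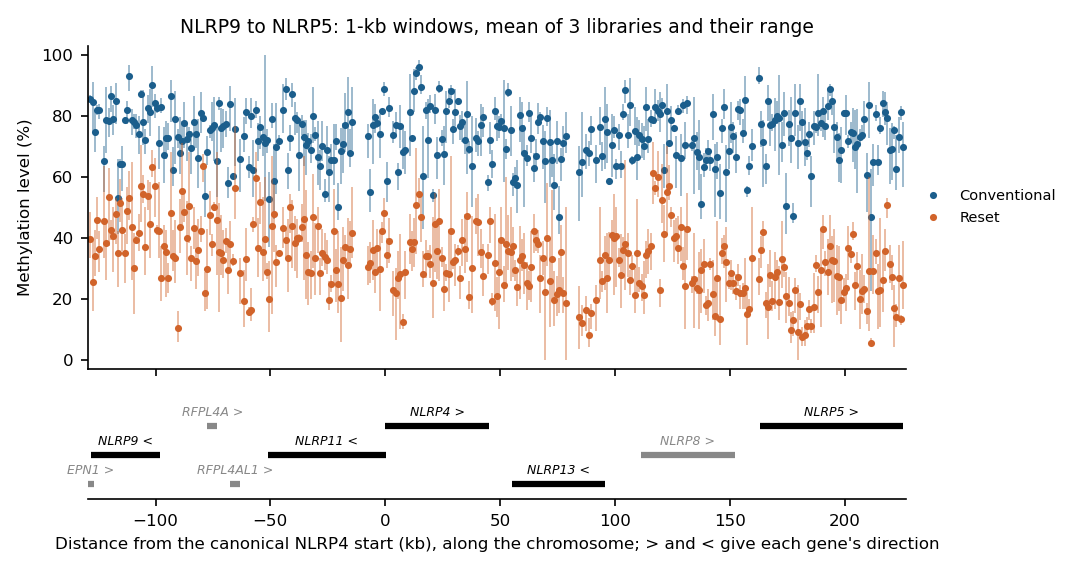
Methylation level (%) in 1-kb windows across the distal NLRP cluster against the distance in kb from the canonical NLRP4 start, as the mean of 3 libraries (points) and their range (vertical lines), with genes drawn to scale below. The Conventional median is 73.9% and the Reset median 32.7%, with higher Reset windows in NLRP9 at the left and lower ones in NLRP5 at the right.

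Of the 3 highest Reset windows in member genes, the first and the third were in NLRP9 and the second in OOEP. The window at chr19:56246001-56247000, in its first intron, was at 83.0%, 91.4% and 96.2% in Conventional and at 60.3%, 68.8% and 60.0% in Reset. The window at chr19:56241001-56242000, over exon 3, had 87.1% and 57.1%. Of 29 NLRP9 windows, 8 (27.6%) held 50% or more in Reset, beside 9.76% of all windows tested, and none was under 10%. In NLRP5, 5 of 62 windows (8.07%) were under 10%, a smaller share than the 10.9% of all windows tested, and 1 was at 50% or more. Its windows at chr19:56524001-56525000, chr19:56527001-56528000 and chr19:56529001-56531000 were at 7.56% to 9.87% in Reset from 70.96% to 77.8% in Conventional. The lowest, chr19:56559001-56560000, was at 5.48% in Reset and at 46.7% in Conventional.

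TLE6, a member of the Groucho/TLE corepressor family that belongs to the subcortical maternal complex, differed from the others in Conventional. It lies at chr19:2977536-2995177. Its promoter was at 11.6%, 7.05% and 6.64% in Conventional and at 1.37%, 0.637% and 2.44% in Reset, a difference of -6.96 points (SE 1.69, adjusted p = 0.001181, quasi-binomial model). The states did not overlap, but the Conventional methylation lay at the far edge of the window. From 1000 to 751 bp before the start the level was 24.6% ± 5.81 in Conventional and 2.82% ± 3.17 in Reset, and in the 250 bp before the start it was 0.309% ± 0.535 and 0%, where 0 of 134 Reset calls allow up to 2.24%. With the promoter taken from 500 bp before to 500 bp after the start, TLE6 was at 2.33% ± 0.519 and 1.26% ± 1.10 and was no longer called. Taken from 2000 bp before the start, it was at 22.8% ± 7.62 and 3.45% ± 0.473, a difference of -19.4 points. Its gene body was at 76.2% ± 3.95 in Conventional and 31.9% ± 1.58 in Reset. The bases before its start are shown as the unmethylated counterpart to KHDC3L and OOEP.
TLE6 chr19:2977262-2977535 (plus strand): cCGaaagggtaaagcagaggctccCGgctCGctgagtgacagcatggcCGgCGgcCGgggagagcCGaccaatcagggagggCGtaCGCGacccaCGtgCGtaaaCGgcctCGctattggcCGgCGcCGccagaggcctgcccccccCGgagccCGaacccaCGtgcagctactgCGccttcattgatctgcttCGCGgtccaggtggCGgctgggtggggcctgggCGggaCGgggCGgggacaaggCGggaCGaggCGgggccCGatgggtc

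Here 3 of 255 Conventional calls were methylated, and none of 164 Reset calls, which allows up to 1.83%. With 31 CpGs, the stretch holds more than the printed bases of KHDC3L or OOEP.

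**Figure D5:**
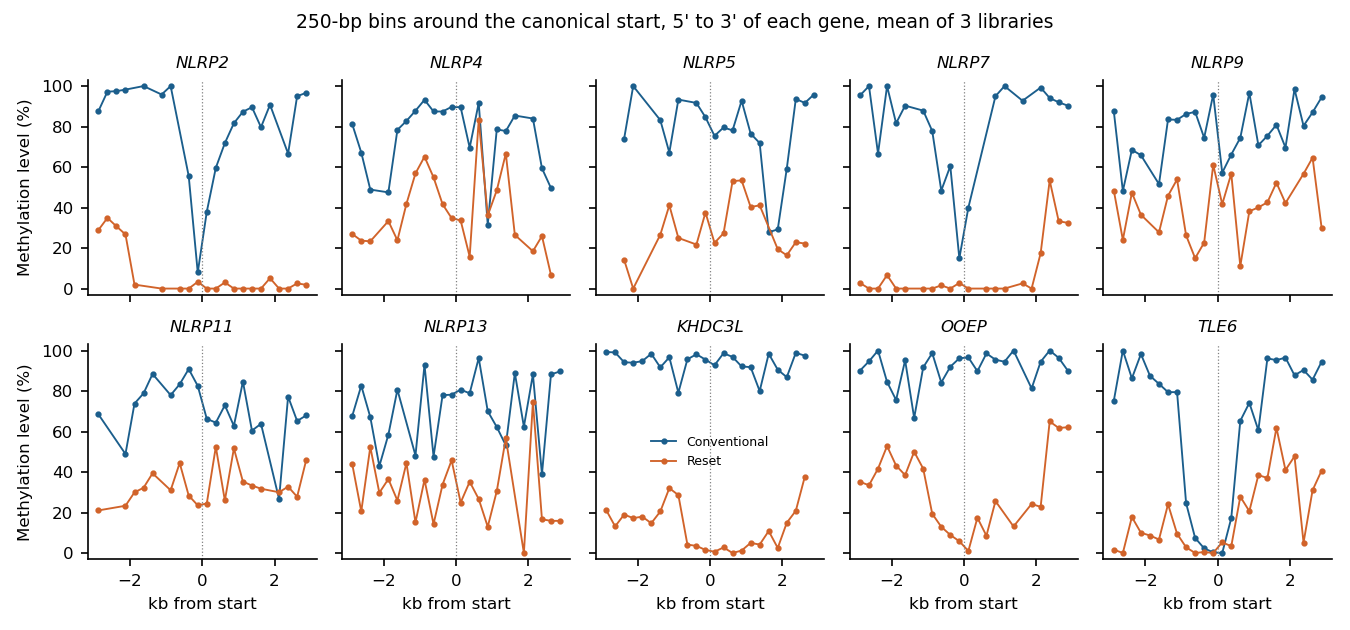
Methylation level (%) in 250-bp bins from 3 kb before to 3 kb after the canonical start of each of the 10 genes, in gene direction, as the mean of 3 Conventional and 3 Reset libraries, leaving out bins in which a library had no call. Conventional dips to 7.94% just before the NLRP2 start and to 0.309% before the TLE6 start, while at KHDC3L and OOEP it stays high and only Reset dips.

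Counted over all member genes and with each window once, 323 of 328 windows were called lower in Reset, none higher, and 321 lay apart, at the background shares of 98.3% and 97.9%. Of the 5 not called, 3 were in TLE6, at 0.829% and 1.24% over its start, 22.9% and 31.5% at chr19:2983001-2984000, and 39.1% and 37.3% at chr19:2987001-2988000. The others were in NLRP11, at 58.6% and 47.7%, and in NLRP9, at 64.0% and 51.4%. Under 10% in Reset were 36 of the 328 windows (11.0%, against 10.9% of all windows tested). At 50% or more were 13 (3.96%, against 9.76%).

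The promoters of the 10 genes had a median of 50.5 CpGs, a GC content of 49.97% and an observed-to-expected CpG ratio of 0.49. Over all coding promoters the medians were 80 CpGs, 57.2% and 0.671. The members ranged from 24 CpGs and a ratio of 0.345 at NLRP9 to 75 CpGs at TLE6 and a ratio of 0.653 at NLRP2. The 5 genes low in Reset had 53 to 75 promoter CpGs and the 5 others 24 to 48, a description over 10 genes of which NLRP2 and NLRP7 share most of their CpGs. TLE6, with the most CpGs, was at 8.44% already in Conventional. The split did not carry over to all genes of the lists below. TCL1A with 68 CpGs and TUBB8 with 57 were at 40.1% and 42.3% in Reset, and NLRP12 with 38 was at 9.49%. A relation between CpG number and level was not tested.

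Beside the 10 genes, a list of 24 other genes of the oocyte was measured. Of them, 22 were called lower at the promoter, none higher, and all 24 over the gene body, beside the background of 67.4% and 97.9%. Their median promoter level was 80.3% in Conventional and 28.6% in Reset. Over all promoters tested these medians were 15.4% and 4.98%, so the background share comes from promoters that were less methylated in Conventional. Of the 24 promoters, 15 were at 50% or more in Conventional. They kept a median of 42.4% of that level, against 37.1% over all 5125 such promoters, so they did not lose more than like promoters. The largest falls were at PADI6, the peptidylarginine deiminase of the subcortical maternal complex, from 90.4% ± 0.755 to 13.8% ± 4.74, at ZP4, a zona pellucida protein, from 92.8% ± 3.64 to 30.3% ± 3.39, and at OOSP2, an oocyte-secreted protein, from 90.8% ± 5.81 to 32.5% ± 16.2. The smallest were at GDF9, an oocyte growth factor, which fell from 3.43% ± 0.191 to 0.570% ± 0.503, and at the 2 that were not called. These were ZAR1, at 9.46% ± 4.22 and 7.70% ± 2.71 (adjusted p = 0.5876), and PATL2, at 3.52% ± 3.28 and 2.83% ± 0.938 (adjusted p = 0.6415, quasi-binomial model).

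Among 7 further NLRP genes, 6 promoters and all 7 bodies were called lower and none higher, again beside 67.4% and 97.9%. Their median promoter level in Conventional was 88.4%, against 15.4% over all promoters tested. The 6 at 50% or more in Conventional kept a median of 42.5%, against 37.1% over all such promoters. NLRP12, a regulator of inflammation, was at 92.6% ± 4.55 and 9.49% ± 3.69 at its promoter, while NLRP1, NLRP3, NLRP6 and NLRP10, at 85.7% to 94.7% in Conventional, were at 32.8% to 51.1% in Reset. NLRP8, which lies within the distal cluster, was at 72.0% ± 6.31 and 22.9% ± 3.72. The NLRP14 promoter was at 2.05% ± 0.826 and 2.42% ± 1.75 and was not called (adjusted p = 0.9081), although its body fell from 86.8% ± 0.360 to 13.3% ± 0.948. In the family of TLE6, TLE1, TLE3, TLE4 and TLE5 were not called at the promoter, where their Conventional levels were 0.130% to 12.8% and their Reset levels 0.279% to 7.43%. TLE2 fell from 17.0% ± 4.19 to 7.95% ± 2.29, and all 5 bodies were called lower, as were nearly all bodies tested.

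The coding promoters whose 6 library levels lay closest to the mean profile of the 10 genes were those of AFM, C12orf50 and TRIM38, at Euclidean distances of 7.881, 8.002 and 8.070 percentage points. Of 19283 promoters compared, 274 lay within 20 points. The mean profile, at 18.4% in Reset, lies between the 2 groups into which the member promoters split. It therefore describes no single member. AFM was at 68.4%, 74.0% and 73.2% in Conventional and at 16.7%, 15.8% and 14.3% in Reset.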

How the data were processed

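Each library's deposited file gave, per covered cytosine, a percent methylated and the counts of methylated and unmethylated calls, per the file contents made by the authors with Trim Galore, Bismark 0.9.0 and Bowtie2 on GRCh37 (submitters' processing notes; the paper's methods name another Bismark version). The deposited percent equalled the share of the deposited counts and was not used further. Libraries had 11 PCR cycles and no duplicate removal is named in the sources used here, so intervals and limits of 0 (3 calls of the total) cover counting error only. Positions counted from 0 fell on reference CpGs in 99.8% of cases, and both strands were summed per CpG of chromosomes 1 to 22 and X.

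Calls were summed per feature (GENCODE release 44 on GRCh37, canonical transcripts) and tested where every library had at least 10. A quasi-binomial logistic model compared the states over all features of a kind, with a likelihood-ratio F test, the dispersion moderated with limma 3.58.1 (R 4.3.3) and kept at 1 or more, and Benjamini-Hochberg adjustment with a threshold of 0.05. Differences are between the mean library levels of the states, and their SE comes from the SDs of the library levels. The model gave only the p-values, which rest on call counts and the moderated dispersion and not on that SE. The code was tested on simulated data. Sequences were read from GRCh37 with Python 3.11.15. The members and lists were chosen with earlier results of these data known. Named were all 10 genes, the other NLRP genes, the TLE family and the KHDC neighbours, the 3 largest and 3 smallest falls of the other oocyte list, the 3 nearest promoter profiles, and the 3 highest and 3 lowest Reset windows of the member genes. Other windows, the NLRP5 windows and the low stretches were picked after their values were seen.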

Additional observations from a re-analysis of the deposited data

How the results depend on the processing

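Directions held for all 10 promoters and all 10 gene bodies under other promoter and gene limits. Fisher's exact test on pooled calls kept the same differences and changed only the p-values, so it could not change a direction. As the states did not overlap at any of these features, leaving out a single library could not reverse a direction either. Minimums of 5 or 30 calls, and leaving out CpGs over 30 calls, left every member's difference as it was and so say nothing about stability. The promoter count was 10 in each, and 10 in each without one replicate, except with the promoter 500 bp on each side of the start, where it was 9 because TLE6 fell to -1.07 points and was not called. That narrower promoter also gave 19 of the 24 other oocyte genes and 6 of the 7 other NLRP genes, and 7495 of 18911 promoters lower against 13010 of 19293. The gene body count was 10 throughout, also for canonical transcripts alone, an alternative chosen after seeing the data. Over its canonical transcript the OOEP body moved from -58.2 to -84.4 points. From the narrower to the wider promoter the difference ran from -38.7 to -64.1 points at NLRP2 and from -38.7 to -68.9 at NLRP7. The window count was 268 of 272 at 20 or more calls, and 319 to 326 without one replicate. With each CpG weighted alike, a setting without a test, no direction was reversed. All 10 promoter differences stayed within the larger library SD of the states, and 2 gene body differences moved by more than it.

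Whether the replicate numbers pair the samples could not be decided. Correlations of same-numbered libraries' deviations over 19293 promoters were 0.007, 0.011 and 0.009, and those of differently numbered libraries ran from -0.016 to 0.007. At this depth the deviations include counting error, so values near 0 cannot show that a pairing was absent. The fit with a replicate block called all 10 member promoters and all 10 gene bodies lower, and 12365 promoters lower and 638 higher over the genome.

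Depth limits single bins and windows most, since some rest on under 20 calls per library. Members of a gene family can share reads with near copies, and how such reads were placed was not tested. Coverage in Reset relative to Conventional was 0.844 to 1.27 at the 10 genes.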
